A study of Mus musculus with 27 samples.

Results

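Colon gene expression was compared between 9 and 7 weeks of age in Il10-/- mice kept under specific pathogen free (SPF) conditions. The comparison rests on 6 arrays, the 3 samples titled 9SPF and the 3 titled 7SPF, of 27 arrays in the study, and on all 18193 genes that 1 probe set could represent. Il10 encodes a cytokine that restrains the response of the gut to its microbes, and colitis can arise in mice without it. Both ages carry the same knockout, housing and tissue (homogenized full-thickness colon, RNA on Affymetrix arrays), so age is the factor the labels give.

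Of the remaining groups, each of 3 arrays, 4 are used here as reference for the same ages, wild types in conventional housing and Il10-/- mice in conventional housing at 7 and 9 weeks, and 1 for the later course, SPF knockouts at 12 weeks. No label spells out the code CC; it was taken as the conventional knockouts because those were the one arm left without a code. The set holds no SPF wild types, so a change in SPF knockouts cannot be set against normal ageing under SPF housing. The strain, the knockout allele and the time of day at which colons were taken are not given in the labels used here. The labels do not say whether the replicates were separate animals or pools. The p-values therefore set each difference against the spread between arrays, which need not be that between animals. The authors chose the samples of each group from colon length and damage, so the replicates are not a random sample.

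All values are log2 expression as deposited, so a difference of 1 is 2-fold. Errors are standard errors of a limma model with 3 arrays per group, which pools the spread over all 27 arrays. A gene is said to have risen or fallen when its p-value, adjusted over all genes by the Benjamini-Hochberg method, was under 0.05. Over the 6 arrays Spearman correlations lay between 0.974 and 0.995. Muc2, the main mucin of colonic goblet cells, lay between 13.73 and 14.13 on these arrays, and Lct, the lactase of small intestine, between 2.78 and 3.05. Il10 itself read 5.06, 4.66 and 4.77 at 7 weeks and 5.58, 5.42 and 5.94 at 9 weeks, a difference of 0.82 ± 0.29 (adjusted p = 0.191). The position of its probe set relative to the deletion is not known, so it checks nothing about the knockout.

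Between 7 and 9 weeks 85 genes rose (0.467% of those tested) and 47 fell (0.258%). Circadian clock genes led the list: 16 of the 132 called genes are on the 2 clock lists, and the 7 largest falls among called genes are all clock genes. Of the 85 risen genes, 6 are on the cell cycle list, 2 on the interferon gamma list and 1 on the antimicrobial list. In all 132 called genes the 3 arrays of one age lay beyond the 3 of the other, which was also true of 25.5% of all genes. At an unadjusted p under 0.05, 7.4% of genes were higher and 7.82% were lower, and the median difference over all genes was -0.02. A fit of only the 6 arrays compared, without the spread of the other groups, called 16 genes (5 higher, 11 lower), 15 of them among the 132. One 9-week array, replicate 3, lay farthest from the 7-week mean in 75 of the 85 risen genes and in 33 of the 47 fallen ones. On that array S100a8, a calprotectin subunit of neutrophils, read 9.66, against 3.84 and 4.63 on the other two, and without it 23 genes were called, 10 higher and 13 lower, all of them among the 132.

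The circadian clock is a transcriptional loop present in most cells, the colonic epithelium included. The activators Arntl (BMAL1), Clock and Npas2 switch on the Per and Cry genes, whose products return to block them, and the nuclear receptors Nr1d1 and Nr1d2 (REV-ERBs), which repress Arntl. The activators bind a DNA element called the E-box. Output factors of the PAR bZIP family (Dbp, Tef and Hlf) act through a different element, the D-box, on which Nfil3 opposes them. Arntl and the genes it drives therefore peak at opposite times of day.

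In the SPF knockouts the output factors fell most. Dbp stood at 10.16, 10.33 and 10.18 at 7 weeks and at 4.78, 5.03 and 3.90 at 9 weeks, a log2 difference of -5.66 ± 0.67 (adjusted p = 6.95e-05). The 9-week readings lie around or below the median of all probe sets on those arrays (4.91 to 4.96) and no detection call was used, so no exact fold is given for Dbp. Tef read 9.05, 9.37 and 9.24, then 6.30, 6.28 and 5.66, and fell 8.8-fold (-3.14 ± 0.34, adjusted p = 4.63e-05). In both genes the ages were far apart, and 9-week replicate 3 was the lowest array. Hlf went from 7.59, 7.67 and 7.51 to 4.76, 5.01 and 4.22 (-2.92 ± 0.37, adjusted p = 0.000178). Nfil3, the opponent of these factors on the D-box, moved the other way, from 5.17, 4.81 and 5.17 to 7.45, 7.54 and 7.35, and had the smallest p-value of the 18193 genes (2.39 ± 0.24, adjusted p = 2.5e-05). Its 3 arrays at 9 weeks spanned less than its 3 arrays at 7 weeks.

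The repressors of the loop fell with the output factors. Nr1d2 read 10.79, 10.96 and 10.88 at 7 weeks and 8.45, 8.73 and 7.42 at 9 weeks (-2.68 ± 0.37, adjusted p = 0.00054). Nr1d1 read 8.48, 8.54 and 8.55, then 6.07, 6.29 and 5.28 (-2.64 ± 0.41, adjusted p = 0.00254). Ciart, a repressor of the activator pair, read 6.85, 7.19 and 7.12, then 4.79, 4.90 and 4.83 (-2.21 ± 0.26, adjusted p = 6.95e-05). Replicate 3 was the lowest 9-week array for both REV-ERBs but lay between the other two for Ciart. Of the Period genes, Per3 fell most (7.25, 7.33 and 7.51 to 5.08, 5.58 and 4.69; -2.25 ± 0.31, adjusted p = 0.000601). Per2 followed (6.92, 7.36 and 7.39 to 5.63, 6.04 and 4.85; -1.72 ± 0.31, adjusted p = 0.0098). Per1, which also responds acutely to glucocorticoids, was the tightest at 9 weeks (6.67, 7.01 and 7.01 to 5.34, 5.40 and 5.38; -1.53 ± 0.28, adjusted p = 0.0114). Cry2 (-0.96), the clock-controlled protease gene Usp2 (-0.99) and Bhlhe40 (-0.61) also fell, with adjusted p of 0.0114, 0.00602 and 0.0321.

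The activators and Cry1 rose. Arntl read 6.44, 6.14 and 6.21 at 7 weeks and 8.28, 8.14 and 7.81 at 9 weeks (1.81 ± 0.33, adjusted p = 0.0114). Npas2 read 5.50, 5.86 and 5.26, then 7.27, 6.95 and 6.57 (1.39 ± 0.26, adjusted p = 0.0139). Cry1, which in many tissues peaks later than the other repressors, read 5.84, 5.92 and 5.85, then 7.42, 7.25 and 7.07 (1.38 ± 0.24, adjusted p = 0.00651). Clock itself was not called (0.20, adjusted p = 0.485), nor were Rora (-0.29, adjusted p = 0.385), Wee1 (-0.30, adjusted p = 0.245) and Bhlhe41 (-0.02, adjusted p = 0.97). Of 20 measured genes on the 2 lists, 4 rose, 12 fell and 4 were not called, with a median of -0.97, against -0.02 over all genes. Without 9-week replicate 3, 4 were called higher and 8 lower.

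**Figure D1:**
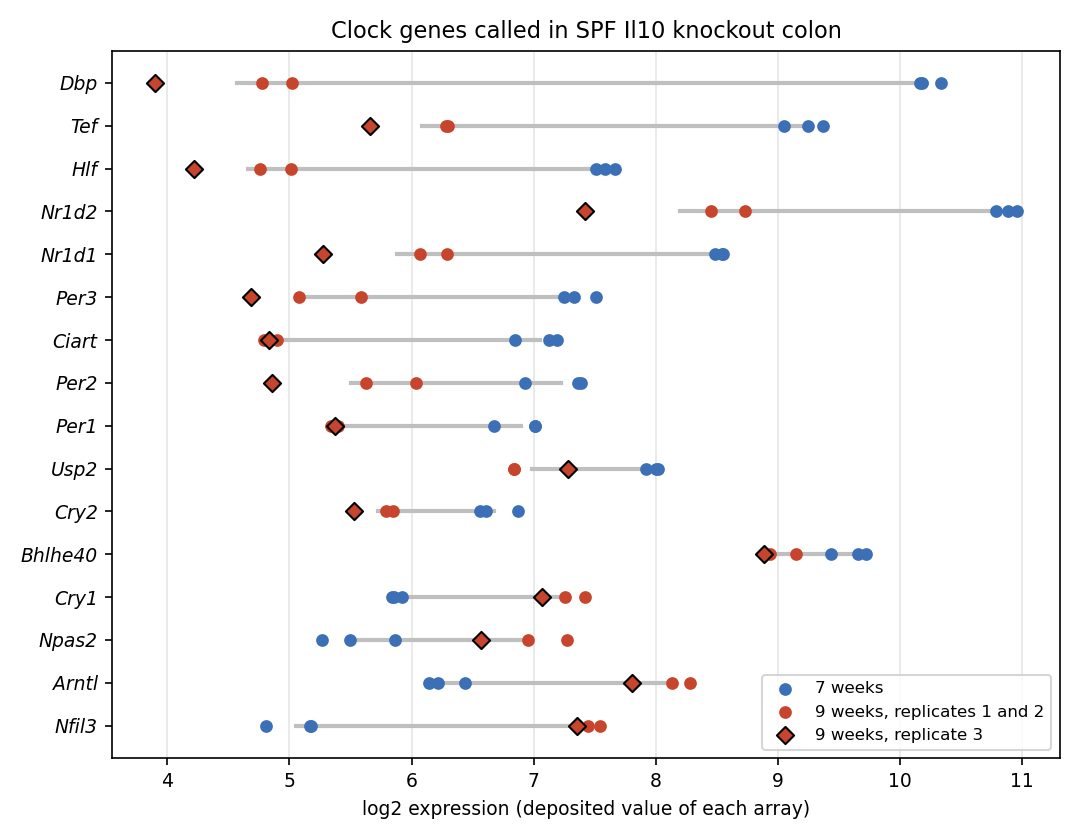
Deposited log2 expression (x axis) of the 16 called clock genes (y axis) on the 6 arrays; circles are 7-week arrays (blue) and 9-week replicates 1 and 2 (red), diamonds are 9-week replicate 3, and grey bars join the means of the ages. In each gene the 2 ages do not overlap, from Dbp with 10.16 to 10.33 against 3.90 to 5.03 at the top to Nfil3 with 4.81 to 5.17 against 7.35 to 7.54 at the bottom.

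The called clock genes had 15 further probe sets, of which 14 pointed the same way as the one used and 11 were called in a fit of all probe sets. The second probe set of Dbp fell by 4.995, the second of Hlf fell by 1.65 and the second of Arntl rose by 1.45, each called. The second of Npas2 differed by 0.67 (adjusted p = 0.302) and one of Per2 by -0.65 (adjusted p = 0.13), neither called, and Npas2 also lost its call when the probe sets of a gene were averaged. Per3 had 6 probe sets, of which 5 were lower at 9 weeks, with log2 differences from -2.42 to -0.60, while the other one was at 0.055 (adjusted p = 0.932). Over all called genes, 106 of 117 further probe sets pointed the same way as the one used.

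Promoter sequence next to the gene start was searched for the element that the activators bind. The 250 bases before each RefSeq gene start (build GRCm38.p6) were searched on both strands for the E-box CACGTG and for the D-box TTANGTAA, in the 14452 measured genes with a promoter entry. The E-box was present for 8.7% of all genes, for 11 of 37 fallen genes with an entry (29.7%) and for 5 of 64 risen ones (7.8%). The 11 are Ciart, Cipc, Coq10b, Insig1, Lnx1, Mapk12, Per1, Slc20a1, Slc5a1, Tbcel and Tef. The stretches below show the E-boxes of 5 clock genes and the pair of D-boxes of Per3, the one clock gene with a D-box in this window, each on the gene's own strand from 5′ to 3′ with the matched element in capitals. Ciart holds 3 E-boxes, and Tef has 1 at each of its 2 RefSeq starts. Of the 10 fallen genes on the clock lists with an entry, only 3 had the E-box in the window, Ciart, Per1 and Tef. Dbp, Nr1d2, Per3 and Cry2 had an entry but no E-box there. Of the 4 risen clock genes, all with an entry, Cry1 was the one with an E-box in the window. The ROR element, through which the REV-ERBs act, was present for 0.3% of all genes and for none of the called genes with an entry. A match of letters is a description and not a measured binding site.

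Ciart, chr3:95882237-95882374, minus strand: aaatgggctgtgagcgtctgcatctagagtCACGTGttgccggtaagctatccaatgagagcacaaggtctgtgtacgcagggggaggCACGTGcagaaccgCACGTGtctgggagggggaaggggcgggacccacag
Tef, chr15:81802516-81802581, plus strand: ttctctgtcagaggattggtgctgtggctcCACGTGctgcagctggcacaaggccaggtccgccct
Tef, chr15:81811246-81811311, plus strand: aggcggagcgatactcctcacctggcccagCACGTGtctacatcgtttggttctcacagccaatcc
Per1, chr11:69098753-69098818, plus strand: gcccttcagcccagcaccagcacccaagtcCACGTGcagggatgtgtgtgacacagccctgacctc
Cipc, chr12:86947296-86947342, plus strand: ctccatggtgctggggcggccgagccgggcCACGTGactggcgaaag
Cry1, chr10:85185079-85185144, minus strand: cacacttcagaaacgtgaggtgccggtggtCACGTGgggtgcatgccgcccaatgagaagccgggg
Per3, chr4:151044786-151044900, minus strand: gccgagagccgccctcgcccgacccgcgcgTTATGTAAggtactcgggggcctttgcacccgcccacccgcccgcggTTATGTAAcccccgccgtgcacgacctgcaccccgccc

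Cipc, the CLOCK-interacting pacemaker, was on neither list but was among the 12 largest falls (10.11, 10.45 and 10.30 to 9.34, 9.21 and 8.61; -1.23 ± 0.20, adjusted p = 0.00359). Slc20a1, which also has the E-box, encodes a sodium-dependent phosphate transporter. Among called genes it was the largest fall off the clock lists (11.12, 11.90 and 11.17 to 10.06, 10.00 and 8.85; -1.76 ± 0.34, adjusted p = 0.0155).

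Wild-type colons of the same ages share no array with this comparison. A single gene of 18193 was called in wild types (0.0055%), and it was Ciart (7.01 to 5.20, adjusted p = 0.0114). Dbp went from 10.18 to 6.75 (-3.43 ± 0.67, adjusted p = 0.095), Arntl from 6.37 to 8.03 (1.67 ± 0.33, adjusted p = 0.0978), and Nfil3 differed by 1.28 ± 0.24 (adjusted p = 0.095), so these 3 had the direction seen in SPF knockouts without being called. At 7 weeks the means of wild types and SPF knockouts were 10.18 and 10.22 for Dbp and 6.37 and 6.26 for Arntl, and at 9 weeks Dbp was 6.75 in wild types and 4.57 in SPF knockouts. The difference between the 2 changes was -2.23 for Dbp (adjusted p = 0.641), 1.11 for Nfil3 (adjusted p = 0.638) and 0.145 for Arntl (adjusted p = 0.948). In the test of that difference over all genes limma called none (0%), with 1348 at an unadjusted p under 0.05 (7.41%). The part of collection time in these changes was not tested.

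In conventional knockouts the 7-week means were 5.14 for Dbp, 5.46 for Nr1d1, 7.22 for Nfil3 and 8.53 for Arntl, beside 9-week means of 4.57, 5.88, 7.45 and 8.07 in SPF knockouts. From 7 to 9 weeks Dbp differed by 0.79 there (adjusted p = 0.5) and Arntl fell by 1.16 (adjusted p = 0.0299). The test of the difference between the changes of SPF and conventional knockouts called 17 genes (0.0934%), of which 9 are on the clock lists: Dbp, Tef, Nr1d1, Nr1d2, Ciart, Arntl, Npas2, Cry1 and Nfil3. Dbp differed by -6.45 (adjusted p = 0.0041) and Arntl by 2.97 (adjusted p = 0.00508). Per2 fell in conventional knockouts too (7.07 to 5.43, adjusted p = 0.00311), and its 2 changes differed by -0.08 (adjusted p = 0.988).

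**Figure D2:**
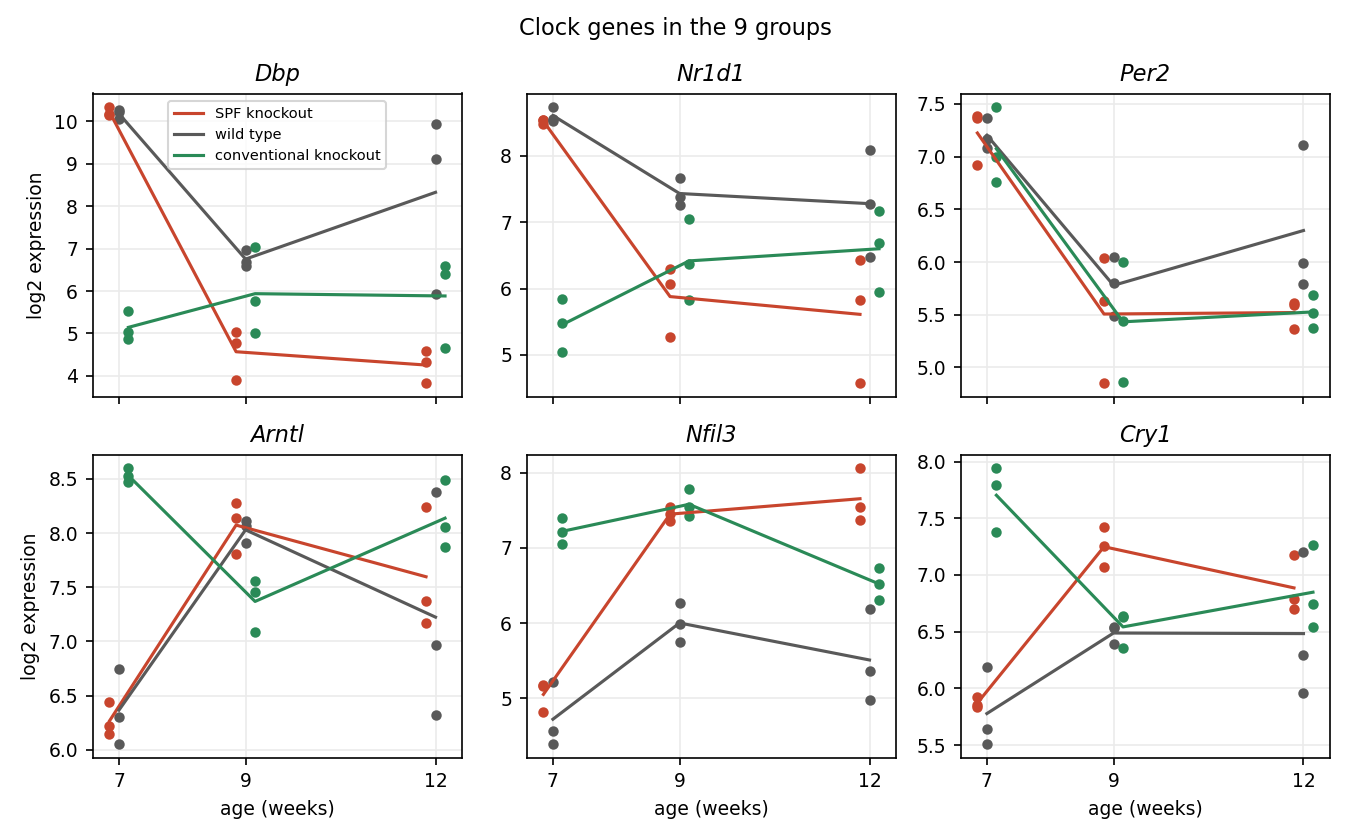
Log2 expression (y axis) of 6 clock genes by age in weeks (x axis) in SPF knockouts (red), wild types (grey) and conventional knockouts (green); points are arrays and lines join group means. SPF knockouts and wild types start together at 7 weeks (Dbp 10.22 and 10.18), while conventional knockouts start at 5.14.

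At 12 weeks the SPF knockout means were 4.25 for Dbp, 6.41 for Tef, 5.61 for Nr1d1 and 7.60 for Arntl. The step from 9 to 12 weeks uses the same 9-week arrays, and limma called no gene in it (0%), with 3431 genes at an unadjusted p under 0.05 (18.9%). Between 7 and 9 weeks that share was 15.2%. The 12-week arrays had root mean square distances from their group mean of 0.216, 0.363 and 0.283, against 0.199, 0.147 and 0.263 at 9 weeks. The lack of calls therefore does not show that expression stayed level after 9 weeks.

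Genes of DNA replication and mitosis rose as well. Such genes are transcribed in dividing cells, which in colon are mainly those of the lower crypt, together with dividing immune and stromal cells. Of 31 measured genes on the list, 6 rose, none fell, 26 were higher at an unadjusted p under 0.05 and 28 had no overlap between ages. Over all genes 0.467% rose, 0.258% fell, 7.4% were higher and 7.82% lower at that threshold, and 25.5% had no overlap. These shares are the background for the lists below as well. The list's median was 0.67, against -0.02 over all genes, 0.06 for the same list in wild types and 0.51 in conventional knockouts. In whole tissue, more dividing cells and more RNA per dividing cell cannot be told apart.

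Top2a, the DNA topoisomerase that untangles chromosomes, read 9.03, 9.12 and 9.07 at 7 weeks and 9.82, 9.85 and 10.41 at 9 weeks (0.95 ± 0.21, adjusted p = 0.0321). Cdk1, the kinase that starts mitosis, read 8.51, 8.64 and 8.43, then 9.30, 9.24 and 9.71 (0.89 ± 0.20, adjusted p = 0.0401). In both genes the ages did not overlap, and replicate 3 was the highest at 9 weeks. Mki67, the proliferation antigen, read 9.75, 9.95 and 9.79, then 10.34, 10.38 and 10.64 (0.62 ± 0.15, adjusted p = 0.0487). Ccna2 (cyclin A2; 0.75), Bub1 (a spindle checkpoint kinase; 1.05) and Rrm2 (the small subunit of ribonucleotide reductase; 1.52) had adjusted p of 0.0432, 0.0397 and 0.0459. Foxm1 (-0.01) and Tyms (0.07) were among the members that were not called. The replication licensing genes Mcm2 to Mcm7 on the list had differences from 0.49 to 0.82, none of them called.

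Further called genes outside the list work in the same processes, and were picked out after their values were seen. E2f2, a transcription factor of the G1 to S transition, rose most (6.02, 5.70 and 6.20 to 7.22, 7.26 and 8.31; 1.62 ± 0.25, adjusted p = 0.00254). Pclaf, a partner of the replication clamp PCNA, rose by 1.03 (adjusted p = 0.00359), Cdca5 (sororin, which holds sister chromatids together) by 1.09 and Brca1 by 1.17. The kinetochore genes Ndc80, Nuf2 and Spc25 rose by 0.98, 0.76 and 0.90. The DNA polymerase genes Pola1 and Pole rose by 0.71 and 0.95, and Mcm10 by 0.94. A second probe set of Pola1 differed by -0.12, one of Spc25 by 0.13 and further ones of Mcm10 by 0.083 and 0.181, none called. Brca1, Spc25, Pola1 and Mcm10 lost their calls when the probe sets of a gene were averaged. The other genes named in this paragraph kept theirs.

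The calls on the cell cycle list were near the threshold. In each fit that left out a 7-week SPF array, or 9-week replicate 2 or 3, no list member was called by limma, with 18 to 26 at an unadjusted p under 0.05, and 9 were called without 9-week replicate 1. Without replicate 3 the list's median was 0.53. The list's mean per array was 7.62, 7.56 and 7.47 at 7 weeks and 8.03, 8.10 and 8.56 at 9 weeks. Off the list, E2f2 and Pclaf were called in each of the 27 fits that left out 1 array. Cdca5 was called in 24 of them and Brca1 in 22.

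Many mitotic promoters carry the cell cycle genes homology region (CHR, TTTGAA), bound by the complexes that silence them in resting cells, beside CCAAT boxes. In the same 250-base window, on either strand, TTTGAA was present for 14.1% of all genes and for 15 of 64 risen genes (23.4%). It was present for 3 of 37 fallen genes (8.1%) and for 7 of 26 cell cycle list genes with an entry (26.9%). An E2F site (TTTCCCGC or TTTGGCGC), the other cell cycle element searched, was present for 2.3% of all genes and for 1 of 64 risen genes (1.6%), Pola1. On the cell cycle list 4 of 26 genes had an E2F site (15.4%), Cdc6, Mcm5, Mcm6 and Mcm7. CCAAT was present for 39.4% of all genes, for 42 of 64 risen genes (65.6%) and for 20 of 37 fallen ones (54.1%). Of the 26 cell cycle list genes 19 had it (73.1%). The stretches of Cdk1 and Top2a show the CHR in capitals close to the gene start, on the gene's strand; the one in Top2a reads as the reverse complement.

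Cdk1, chr10:69352913-69353013, minus strand: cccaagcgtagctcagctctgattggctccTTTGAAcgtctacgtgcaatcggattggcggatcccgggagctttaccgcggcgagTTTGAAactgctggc
Top2a, chr11:99024190-99024242, minus strand: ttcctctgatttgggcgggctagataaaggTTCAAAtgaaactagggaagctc

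**Figure D3:**
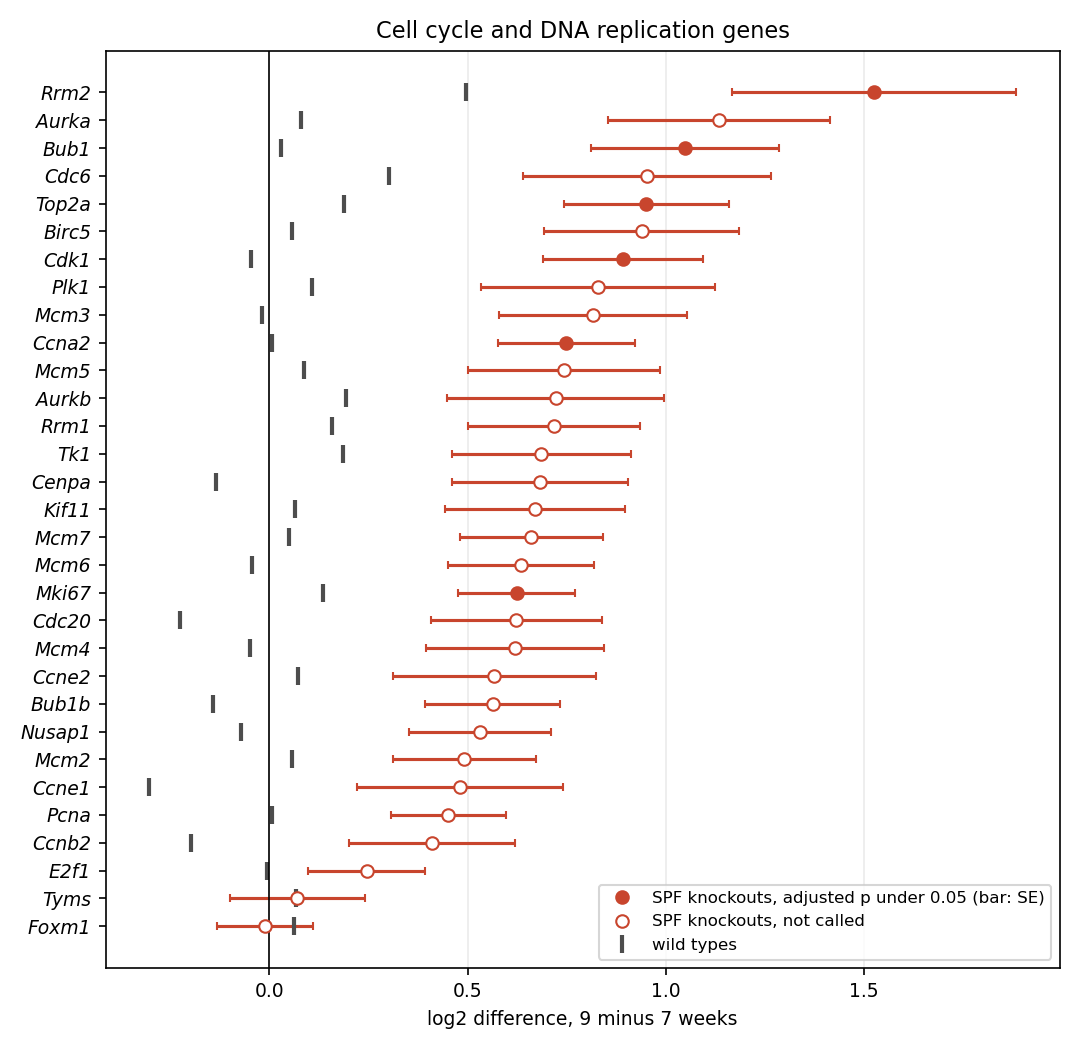
Log2 difference between 9 and 7 weeks (x axis) of the 31 measured cell cycle and replication genes (y axis) in SPF knockouts, as circles with SE bars (filled where called), and in wild types, as vertical ticks. All but Foxm1 lie above 0 in SPF knockouts, and the list's median is 0.67 there and 0.06 in wild types.

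The 12 largest rises among called genes also held genes that are on no clock or cell cycle list and that have varied roles. In inflamed colon the epithelium makes antimicrobial proteins, hydrogen peroxide and stress proteins, and interferon gamma from lymphocytes induces guanylate-binding proteins and immunity-related GTPases. Sprr1a, a precursor of the cornified envelope induced in stressed epithelium, had the largest rise among called genes (6.16, 4.99 and 6.74 to 8.23, 7.82 and 9.27; 2.48 ± 0.49, adjusted p = 0.0169). Mfsd2a, a transporter of lysophosphatidylcholine, rose by 2.41 ± 0.55 (5.78, 4.39 and 6.12 to 7.06, 7.41 and 9.03; adjusted p = 0.0415). Trim15, of the tripartite motif family, rose by 2.14 ± 0.41 (6.65, 5.93 and 7.31 to 8.17, 8.30 and 9.83; adjusted p = 0.0141). In all 3 genes 7-week replicate 2 was the lowest array and 9-week replicate 3 the highest. None of the 3 kept its call without 7-week replicate 1 or 2 or 9-week replicate 3, and Mfsd2a was called in 13 of the 27 fits that left out 1 array. Trim40 and Trim31, of the family of Trim15, rose by 1.17 and 0.55.

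Duoxa2, which brings the hydrogen peroxide producing oxidase DUOX2 to the cell surface, read 5.30, 4.70 and 5.61, then 6.19, 6.48 and 7.74 (1.60 ± 0.34, adjusted p = 0.0247). It was the one called gene of 26 antimicrobial and acute phase genes, 8 of which were higher at an unadjusted p under 0.05 and none lower, with a median of 0.93. Lrg1, an acute phase glycoprotein, had a difference of 2.61 (adjusted p = 0.0663), and Reg3g, an antibacterial lectin already at 10.79 to 12.61 at 7 weeks, one of 1.48 (adjusted p = 0.297). S100a8 read 3.78, 3.71 and 3.56 at 7 weeks and 3.84, 4.63 and 9.66 at 9 weeks, a difference of 2.36 (adjusted p = 0.321). The neutrophil marker list as a whole averaged 3.81 to 3.95 at 7 weeks and 3.84, 3.97 and 5.09 at 9 weeks. Of its 13 measured genes 8 had differences above 0 and 5 below, with a median of 0.20. The granule genes Elane, Mpo and Camp had differences of -0.08, 0.12 and -0.07.

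Socs3, the feedback inhibitor of STAT3 signalling, rose from between 6.76 and 8.60 at 7 weeks to 9.27, 9.38 and 10.55 at 9 weeks (1.95 ± 0.45, adjusted p = 0.0428), the one called gene of 16 on the STAT3 list. Ptk6, an epithelial tyrosine kinase, and Nfkbiz, a nuclear regulator of NF-kB target genes, rose by 1.30 and 0.96. Prdm1 (Blimp-1), made by plasma cells but also by other cells, rose by 1.23 (adjusted p = 0.0213) and was the one called gene of 11 plasma cell markers. Ak4, a mitochondrial adenylate kinase, read 7.67, 7.42 and 8.48, then 9.21, 9.49 and 10.36 (1.83 ± 0.32, adjusted p = 0.00772). Hk2, a glycolytic hexokinase, rose by 0.95 (adjusted p = 0.0403). Rnf125, a ubiquitin ligase, rose by 1.69 (adjusted p = 0.00401) and Hbegf, a ligand of the EGF receptor, by 1.31 (adjusted p = 0.0335). Of these 8 genes, Rnf125 alone kept its call without 7-week replicate 2 or without 9-week replicate 3, and Socs3 was called in 15 of 27 such fits.

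Of 26 interferon gamma genes, 2 rose, 16 were higher at an unadjusted p under 0.05 and none fell, with a median of 0.67. Over all genes 0.467% rose and 7.4% were higher at that threshold. Iigp1, an immunity-related GTPase, read 8.57, 8.05 and 9.56, then 10.33, 10.49 and 11.73 (2.12 ± 0.48, adjusted p = 0.0403). Gbp6, a guanylate-binding protein, read 6.73, 6.70 and 7.02, then 7.90, 8.27 and 9.14 (1.62 ± 0.38, adjusted p = 0.0459). Both genes were highest on replicate 3. Without that array limma called no member of the list, 9 members were higher at an unadjusted p under 0.05 and the median was 0.42. The chemokines Cxcl9 and Cxcl10 had differences of 2.37 and 2.04 with adjusted p of 0.113 and 0.118. Ifng itself had a difference of 0.73 (unadjusted p = 0.302). Of the 24 genes of the type I interferon list none was called, none was higher and 1 was lower at an unadjusted p under 0.05, and the median was -0.13.

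**Figure D4:**
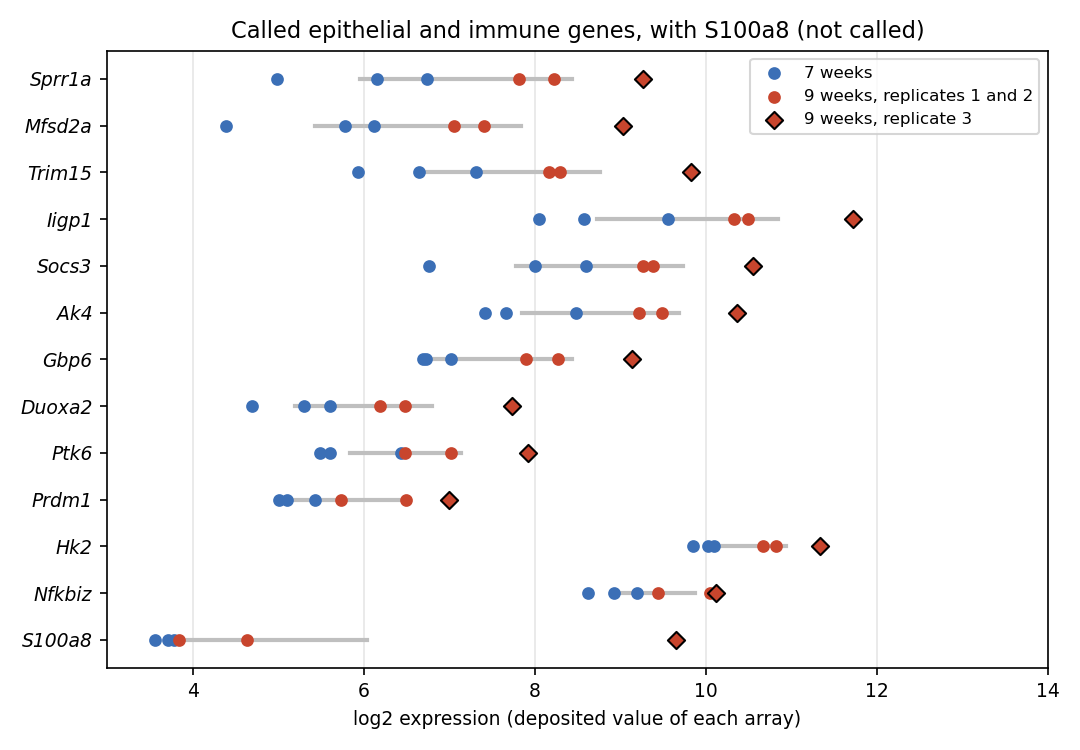
Deposited log2 expression (x axis) of 12 called genes of varied roles and of S100a8, which was not called (y axis), on the 6 SPF knockout arrays. Symbols and bars are as in the plot of clock genes. The 2 ages do not overlap in the called genes, as in Trim15 (5.93 to 7.31 against 8.17 to 9.83), and S100a8 is high on 9-week replicate 3 alone (9.66).

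The reference groups give the levels of these genes with and without the knockout. In wild types Trim15 went from 5.77 to 5.73, Iigp1 from 6.66 to 6.53 and Socs3 from 6.98 to 6.73, with adjusted p of 1 in each. In conventional knockouts the same genes rose by 2.56, 2.85 and 2.39 (adjusted p = 0.000989, 0.00141 and 0.00311), and the SPF change minus this one was -0.42, -0.73 and -0.44 (adjusted p = 0.943, 0.899 and 0.946). The SPF change minus the wild-type change was 2.18, 2.25 and 2.19, and was not called either (adjusted p = 0.638 in each). Conventional knockouts had 1899 called genes between these ages (10.4%), 971 higher (5.34%) and 928 lower (5.1%), and 36 of the 85 genes that rose in SPF knockouts rose there and 4 fell. Of the 47 that fell in SPF knockouts, 11 fell in conventional knockouts and 1 in wild types. Differences above 0 were found for 71 of the 85 in wild types, where 46.6% of all genes were above 0, and below 0 for 44 of the 47, where 53.1% of all genes were below.

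Outside the clock, the falling genes included several transporters and epithelial genes, picked out after their values were seen. Lefty1, an antagonist of Nodal signalling, read 7.18, 6.84 and 6.95, then 5.99, 5.70 and 5.83 (-1.15 ± 0.13, adjusted p = 6.95e-05). Tns4, a focal adhesion protein of epithelium, fell by 1.05 (adjusted p = 0.00227), and Cys1, a protein of primary cilia, by 1.13 (adjusted p = 0.000601). In the fit of all probe sets, a second one of Cys1 differed by -0.002 (not called) and a second one of Tns4 by -0.87 (called). Slc5a6 (a vitamin transporter), Slc2a5 (the fructose transporter) and Slc5a1 (the sodium glucose transporter) fell by 0.84, 0.67 and 0.47. Of 29 colonocyte transport genes Slc20a1 was the one called, 6 were lower and 1 higher at an unadjusted p under 0.05, and the median was -0.36. Insig1, which holds back sterol regulatory proteins, fell by 0.74 (adjusted p = 0.0391) as the one called gene of 18 on the cholesterol list, 7 of which were lower at an unadjusted p under 0.05. Ptgis (prostacyclin synthase) and Mgp (matrix Gla protein), both made by stromal cells, fell by 0.88 and 0.97.

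Markers of the colon's cell types gave few calls. Colonocyte and goblet cell lists had medians of -0.14 and -0.16 and no called gene, with none of 15 goblet genes at an unadjusted p under 0.05. Of 19 macrophage and monocyte genes none was called and 9 were higher at an unadjusted p under 0.05 (median 0.54). The list's mean was 6.91, 6.28 and 6.68 at 7 weeks and 6.70, 7.19 and 7.36 at 9 weeks, so that the ages overlapped. Of 9 MHC class II genes 5 were higher at an unadjusted p under 0.05, none of them called, with a median of 0.75 and an overlap of the ages in each of the 9. Lists of the muscle layer and its nerves leaned the other way. Of 16 enteric neuron genes 10 were lower at an unadjusted p under 0.05 and none was called (median -0.58), with Snap25 at -0.95 (adjusted p = 0.0958) and Vip at -0.86 (adjusted p = 0.15). The neuron mean was 6.335, 6.362 and 5.9 at 7 weeks and 5.902, 5.78 and 5.494 at 9 weeks, so that the ages overlapped slightly. All 17 smooth muscle genes had differences below 0 (median -0.38), 4 of them at an unadjusted p under 0.05 and none called. The smooth muscle mean was 10.80, 10.70 and 10.68 at 7 weeks and 10.62, 10.39 and 9.91 at 9 weeks, lowest on the array with high S100a8. Of 15 enteroendocrine genes 6 were lower at an unadjusted p under 0.05 (median -0.56). The enteroendocrine mean was 7.441, 7.486 and 7.115 at 7 weeks and 7.328, 6.876 and 6.121 at 9 weeks, again with an overlap of the ages. The part of a changed tissue make-up in the rises and falls above was not tested.

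**Figure D5:**
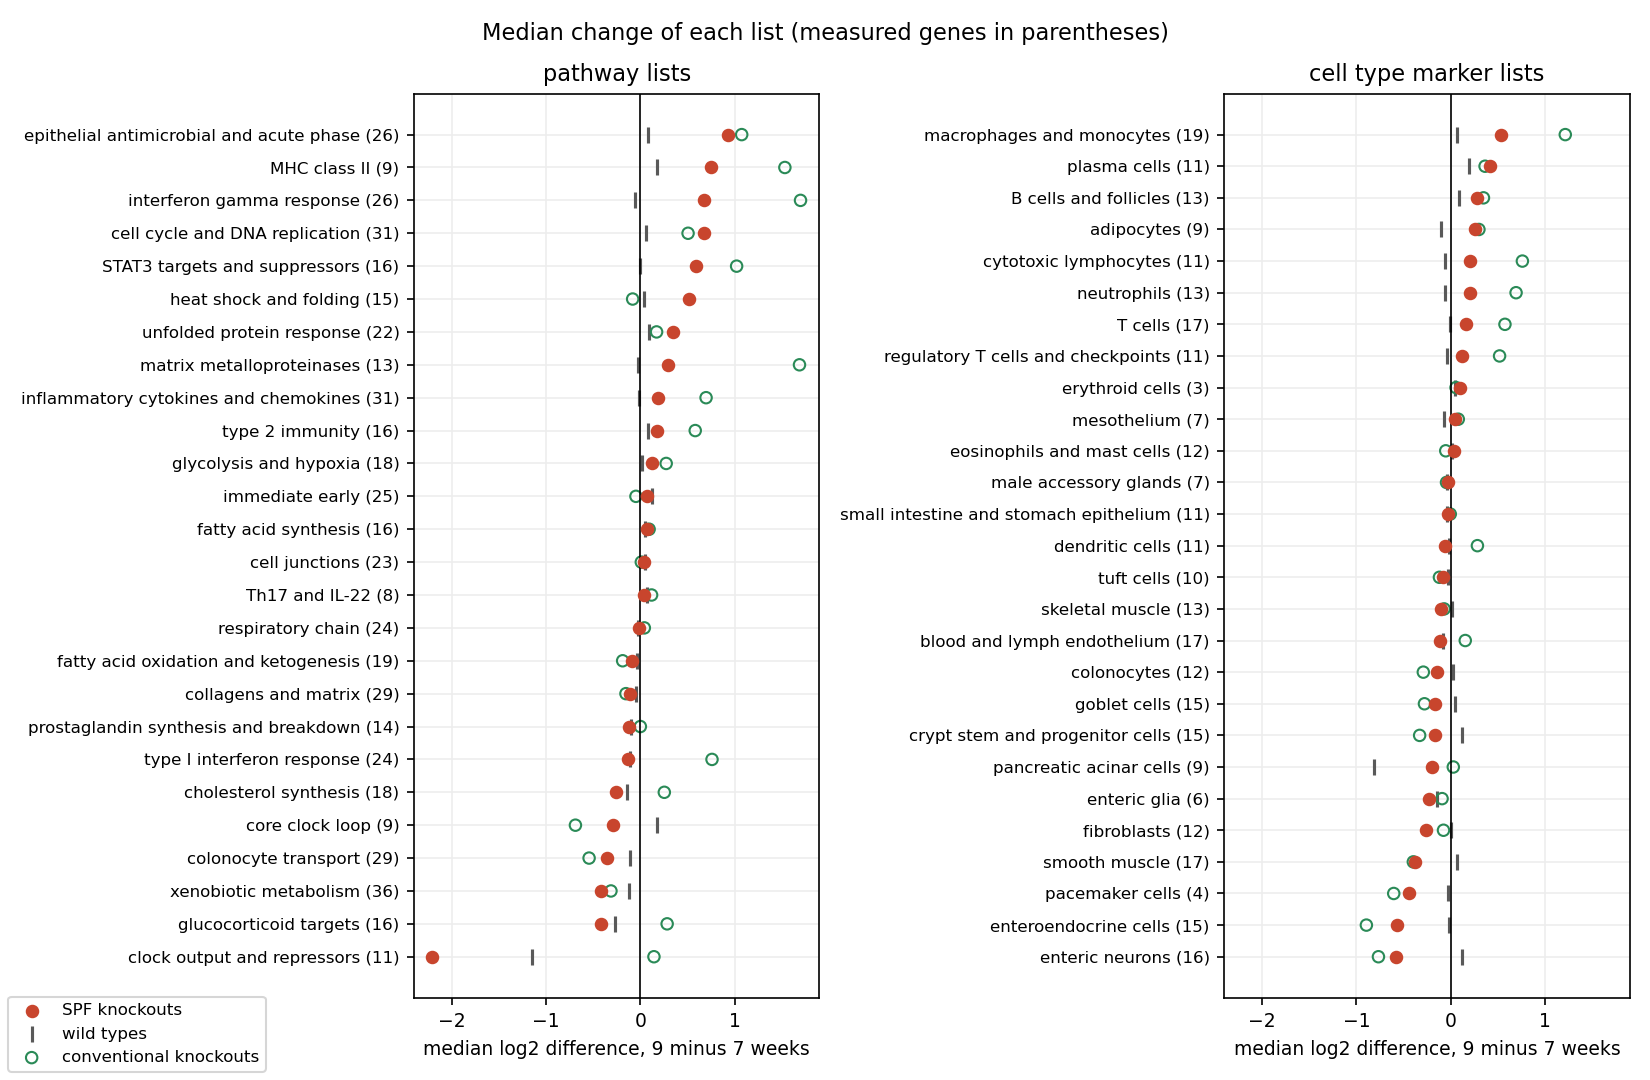
Median log2 difference between 9 and 7 weeks (x axis) of each of 53 gene lists (y axis), for SPF knockouts (filled circles), wild types (ticks) and conventional knockouts (open circles). Clock output and repressors stand apart at -2.21 in SPF knockouts, with -1.15 in wild types and 0.14 in conventional knockouts.

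Among protein folding genes there was 1 call. Of 22 unfolded protein response genes 13 were higher at an unadjusted p under 0.05, while 2 were lower (median 0.34). Sdf2l1, a protein of the endoplasmic reticulum, rose by 0.98 (7.51, 7.26 and 7.35 to 8.03, 8.16 and 8.87; adjusted p = 0.0458). Hspa5 (BiP), the main chaperone of that compartment, had a difference of 0.73 (adjusted p = 0.0576), while Ddit3, which marks a prolonged response, was at -0.40 (unadjusted p = 0.00327). Of 15 heat shock genes none was called, 9 were higher at an unadjusted p under 0.05 and 2 were lower. Of 16 glucocorticoid targets Per1 was the one called, 6 were lower at an unadjusted p under 0.05 and none higher (median -0.42), among them Klf9 (-0.69, adjusted p = 0.0948) and Klf15 (-0.98, adjusted p = 0.0672). Per1, Klf9 and Klf15 are also under clock control in other tissues.

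Calls were also followed across fits that left out 1 array. Of the 132 called genes, 19 were called in each of the 27 such fits, and 10 of the 19 are on the clock lists. With 9-week replicate 3 left out, limma called no member of the cell cycle, interferon gamma or antimicrobial lists (18, 9 and 4 at an unadjusted p under 0.05), while 12 clock genes were called.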

How the data were processed

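The authors deposited log2 expression values, 1 per probe set and array, normalized across the 27 arrays with affyPLM per the series' design text. Its version and the background and summary steps: not given in the sources used here. The design text speaks of a rat chip, whereas the file's probe sets belong to a mouse one. Control probe sets (64 of 45101) were dropped. Of the rest, 34945 with 1 symbol gave 18193 genes, each read from its brightest probe set by mean over the 27 arrays (9010 genes had more than 1). A further 932 probe sets name several genes and 9160 name no gene; both sorts were tested only in the fit of all non-control probe sets. limma 3.58.1 (R 4.3.3) fitted 9 group means, with 18 residual degrees of freedom and moderated two-sided tests (eBayes). Tested on simulated data for the SPF comparison (18193 genes), the fit called 88% of 100 genes shifted by 1 log2 unit, 98% of 100 shifted by 2, and 7 that were not shifted. The simulated noise was independent between genes, with 1 spread per gene for all arrays. The real arrays differed in root mean square distance from their group mean (0.118 to 0.363), so these results need not hold for them.

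The genes, the 53 lists (840 of 918 entries measured) and the tests were chosen with earlier results of these data known. Genes were named by rule: the 12 largest rises and falls among called genes without overlap, up to 4 called members per list, Il10, and the 6 largest differences between changes. Any other gene in the text was picked after its values were seen. Promoters are RefSeq's (GRCm38.p6). Alternatives were a replicate block, only the arrays compared, quantile normalization, median centring, a filter on the dimmest 40%, all probe sets, mean of probe sets, a variance trend, array weights, a minimum difference of 1, and leaving out each array. Array signal has no depth; the number of arrays limits precision. Tables were made with pandas 2.3.3 and NumPy 2.4.6 under Python 3.11.15, and plots with matplotlib 3.10.9.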

Additional observations from a re-analysis of the deposited data

Results flagged for a closer look

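The change from 7 to 9 weeks differed between SPF and conventional knockouts in 17 genes, by a test of the difference itself (limma, adjusted p under 0.05). The value given is the SPF change minus the conventional one, in log2 units. Of clock genes lower in SPF knockouts by this measure, Dbp was at -6.45, Nr1d1 at -3.60, Nr1d2 at -3.47, Tef at -3.07 and Ciart at -2.75. Of those higher, Arntl was at 2.97, Cry1 at 2.54, Npas2 at 2.46 and Nfil3 at 2.04.

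Outside the clock, Cldn8, a claudin of the distal colon that tightens cell junctions, differed by 2.65. It read 9.09 at 7 weeks and 9.87 at 9 weeks in SPF knockouts (not called, adjusted p = 0.315) but went from 10.78 to 8.91 in conventional knockouts (adjusted p = 0.00368). Lonrf3 differed by 2.02, Spon2 (a secreted matrix protein) by 1.79, Dusp6 (a phosphatase that turns off ERK) by 1.503 and Trib1 (a pseudokinase) by 1.13. Tns4 differed by -1.29, Trafd1 by -1.003 and Cd244a by -0.82, and the last 2 rose in conventional knockouts (by 1.02 and 0.54), with SPF differences of 0.01 and -0.28 that were not called.

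Among the 10092 probe sets with several symbols or none, left out of the gene tests, 19 passed the same threshold between 7 and 9 weeks in SPF knockouts, in a fit of all non-control probe sets. They drew attention as signal outside the genes compared, and no gene name is given for them here.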

How the results depend on the processing

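With the replicate block 169 genes were called between 7 and 9 weeks in SPF knockouts, 128 of them among the 132, and the counts for the other 2 tests were as before (0 and 17). Same-numbered arrays of the 2 ages had correlations, after group means were removed, of -0.05, 0.12 and 0.28. For 9-week replicates 2 and 3 the best match at 7 weeks had the same number. For 9-week replicate 1 it was 7-week replicate 2 (0.26). With 3 arrays per age these values cannot settle whether the numbers pair the samples. A fit of only the 6 arrays compared called 16 (5 higher, 11 lower), array weights called 3392 (1615 higher, 1777 lower), and a minimum log2 difference of 1 left 47. Leaving out 1 array gave 23 to 410 called genes. The fewest came without 9-week replicate 3 (23), 7-week replicate 2 (25), 7-week replicate 1 (49), 7-week replicate 3 (62) and 9-week replicate 2 (69), the most without 9-week replicate 1 (345) or replicate 2 of the SPF knockouts at 12 weeks (410), an array that enters only through the shared spread. For the difference from wild types, array weights called 41 genes and leave-outs 0 to 4 (4 without wild-type 7-week replicate 3). For the difference from conventional knockouts, all probe sets called 31, array weights 1456 and leave-outs 12 to 56 (56 without replicate 2 of the SPF knockouts at 12 weeks). The cause of these shifts was not tested. Among the genes named by rule, none had opposite directions in the main fit and another fit where either fit called it. Changes of sign in genes that neither fit called were not counted.

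The number of arrays, 3 per age, and the choice of replicates by colon damage limit what the comparison can show. In 75 of 85 risen genes 9-week replicate 3 was the most distant array. Age, collection time and inflammation of single samples cannot be told apart here.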

Other observations

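Of 36 measured genes of xenobiotic metabolism limma called none, 7 were lower and 1 higher at an unadjusted p under 0.05, with a median of -0.42, against -0.12 in wild types and -0.31 in conventional knockouts. Over all genes in SPF knockouts 7.82% were lower and 7.4% higher at that threshold. Cyp2f2, a cytochrome P450, had a difference of -1.94 ± 0.66 (adjusted p = 0.173). The list's mean was 7.87, 7.97 and 7.93 at 7 weeks and 7.91, 7.56 and 6.88 at 9 weeks, so that replicate 1 at 9 weeks lay within the 7-week range and replicate 3 lay below it.

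Of 31 inflammatory cytokines and chemokines none was called, 4 were higher at an unadjusted p under 0.05 and 1 was lower, where 7.4% and 7.82% of all genes were. Cxcl5, which draws neutrophils, had a difference of 2.91 ± 0.87 (adjusted p = 0.121) and Tnf one of 0.85 ± 0.25 (adjusted p = 0.118). Ccl11, which draws eosinophils, was the lower one (-1.01, unadjusted p = 0.0016). The 24 respiratory chain genes had a median of -0.02 and no member at an unadjusted p under 0.05, and their mean differed by -0.007 between ages.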
